A study of Rattus norvegicus with 10 samples.

Results

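Tetraspanins are small membrane proteins that cross the membrane 4 times and gather integrins, immune receptors and other partners into patches of the plasma membrane and of late endosomes. Some of them, CD63, CD81 and CD9 above all, are carried on the vesicles that cells release and serve as their markers, and CD37 and CD53 are made mainly by leukocytes. In microglia, the resident macrophages of the brain, the family bears on adhesion, fusion, phagocytosis and endosomal sorting. The members described here are Cd63, Cd81, Cd9, Cd37, Cd53, Cd82 and Cd151. They were found as every probe set whose single gene symbol in the platform annotation is one of these names, which gave 10 probe sets of the 8799 in the table, for 7 of the 4736 genes that it names. Cd81, Cd9 and Cd82 have 2 probe sets each, and each such pair is built on a single transcript accession, so its probe sets are not independent measures of a gene.

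The family was selected on results of the comparison between interferon gamma (IFN-gamma) and control cultures, in which Cd63 had stood out. The differences of the members in that comparison are therefore given as a description, without p-values, and counts of members past a threshold stand beside the share of all probe sets and support nothing.

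Affymetrix rat arrays carried biotin-labelled total RNA from primary microglia of neonatal rat brain, grown in medium with 15% fetal calf serum and plated on day 15 at 100000 cells per dish. The 5 control cultures (numbered 1, 2, 3, 5 and 6) received fresh medium only, and 3 other cultures were given, for 16 hours, 100 U/ml IFN-gamma, a macrophage-activating cytokine made by lymphocytes. IFN-gamma culture 1 was run on 3 technical arrays (1a, 1b and 1c), which were averaged, so n counts cultures. Strain, sex and the purity of the cultures are not given in the sources used here, and each flask held the tissue of a single brain.

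The medians of the deposited signal ran from 7.4 to 23.7 over the 10 arrays, so the arrays were put on a common scale by quantile normalisation of log2(signal + 16), on which a signal of 0 lies at 4. The IFN-gamma labels were borne out by Irf1, an interferon-induced transcription factor gene, at 5.53 to 6.02 in the controls and 8.97 to 9.21 with IFN-gamma. Of 9 measured microglia and macrophage markers, Lyz2, C1qb, Cd14 and Aif1 had control means of 7.81 to 10.8, while Ptprc, P2ry12, Cx3cr1, Itgam and Csf1r lay between 4.73 and 5.60, near the low end of the scale, where 5 is a signal of about 16. None of the 9 lay under 5 in all 8 cultures. Of the markers of other cells, only Gja1 of astrocytes, Syt1 and Nefl of neurons and Cd3d of lymphocytes did. The astrocyte marker Glul (glutamine synthetase) had a control mean of 9.08. Next were Mag of oligodendrocytes (6.28), Slc1a3 of astrocytes (6.17) and Col1a2 of fibroblasts (6.02), all above the dimmer microglia markers. In RNA from whole cultures, fewer cells of a type and less RNA per cell cannot be told apart.

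To show where the family differs in its control regions, the 250 bases before the start site of the genes with the largest differences and of both leukocyte tetraspanins are given 5′ to 3′ from RefSeq (assembly GRCr8), which held a window for 6 of the 7 genes. Capitals mark matches on either strand to the motifs searched for.
Cd63, chr7:1921894-1922143, plus strand: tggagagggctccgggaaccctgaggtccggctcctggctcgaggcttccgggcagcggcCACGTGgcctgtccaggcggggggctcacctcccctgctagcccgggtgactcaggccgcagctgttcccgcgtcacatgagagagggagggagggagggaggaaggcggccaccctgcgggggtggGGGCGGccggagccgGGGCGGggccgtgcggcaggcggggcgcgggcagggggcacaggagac
Cd81, chr1:207665047-207665296, plus strand: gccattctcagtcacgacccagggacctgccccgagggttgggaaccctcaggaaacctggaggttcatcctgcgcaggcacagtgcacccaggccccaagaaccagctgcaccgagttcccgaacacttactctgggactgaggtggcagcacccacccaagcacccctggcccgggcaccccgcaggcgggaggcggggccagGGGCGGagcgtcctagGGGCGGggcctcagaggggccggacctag
Cd9, chr4:159975359-159975608, minus strand: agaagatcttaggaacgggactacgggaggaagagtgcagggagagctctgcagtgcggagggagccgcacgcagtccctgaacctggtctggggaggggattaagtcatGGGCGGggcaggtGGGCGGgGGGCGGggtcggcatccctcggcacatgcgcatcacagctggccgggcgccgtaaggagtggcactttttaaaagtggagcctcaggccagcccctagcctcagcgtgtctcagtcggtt
Cd53, chr2:197087897-197088146, minus strand: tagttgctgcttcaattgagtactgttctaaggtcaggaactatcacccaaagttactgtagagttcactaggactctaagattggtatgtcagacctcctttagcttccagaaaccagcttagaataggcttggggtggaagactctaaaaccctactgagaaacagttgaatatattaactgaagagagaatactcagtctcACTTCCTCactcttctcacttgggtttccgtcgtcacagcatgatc
Cd37, chr1:104860785-104861034, minus strand: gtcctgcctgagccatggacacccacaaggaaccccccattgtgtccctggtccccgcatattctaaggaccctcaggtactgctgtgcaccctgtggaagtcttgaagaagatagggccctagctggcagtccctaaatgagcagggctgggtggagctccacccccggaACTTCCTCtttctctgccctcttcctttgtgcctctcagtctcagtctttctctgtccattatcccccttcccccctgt

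The motifs were the core of the interferon-stimulated response element (GAAANNGAA), the core of the E-box and of the CLEAR element of lysosomal genes (CACGTG), the site of PU.1, a transcription factor of myeloid and B cells (GAGGAAGT), and the GC box bound by SP1 (GGGCGG). They were picked with the sequences and the differences known, so matches are a description and not binding sites. The GC box was in the windows of Cd63, Cd81, Cd9 and Cd151, 4 of 6, against 30.5% of 33469 windows of the same length over all genes. The windows of Cd53 and Cd37 held none, and each instead held a PU.1 motif, present in 2.04% of all windows, starting 46 and 79 bases before the start. The window of Cd63 alone of the 6 held CACGTG (5.59% of all windows), starting 190 bases before the start. No member window held the response element core (8.12% of all windows), which says only that these letters are not in the 250 bases searched. The windows of Cd63, Cd81, Cd9 and Cd151 were 76.4%, 69.2%, 64% and 62% G and C. Those of Cd37 and Cd53 were 57.2% and 42.4%, against a median of 51.2% over all windows. The share of windows with a GC box was not compared at like G and C content. No match of one motif overlapped a match of another in these windows.

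With IFN-gamma the vesicle tetraspanins Cd63, Cd81 and Cd9 were lower, the leukocyte tetraspanin Cd53 was higher, and Cd37 lay within the spread of the controls on the normalised scale. Of the 10 probe sets 8 had a negative and 2 a positive difference, with a median of -0.67 on the log2 scale against -0.02 over all 8740 probe sets tested. By limma's test with Benjamini-Hochberg adjustment over all of these, 2 of 10 were past the threshold of 0.05 in the downward direction and 0 in the upward one, against 0.606% and 0.927% of all probe sets (1.53% in either direction). At 6 of 10 probe sets all 3 IFN-gamma cultures lay below all 5 controls, and at 1 all lay above, where 3.4% and 4.28% of all probe sets did. Since the family was proposed with this comparison known, nothing is read from these counts.

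**Figure D1:**
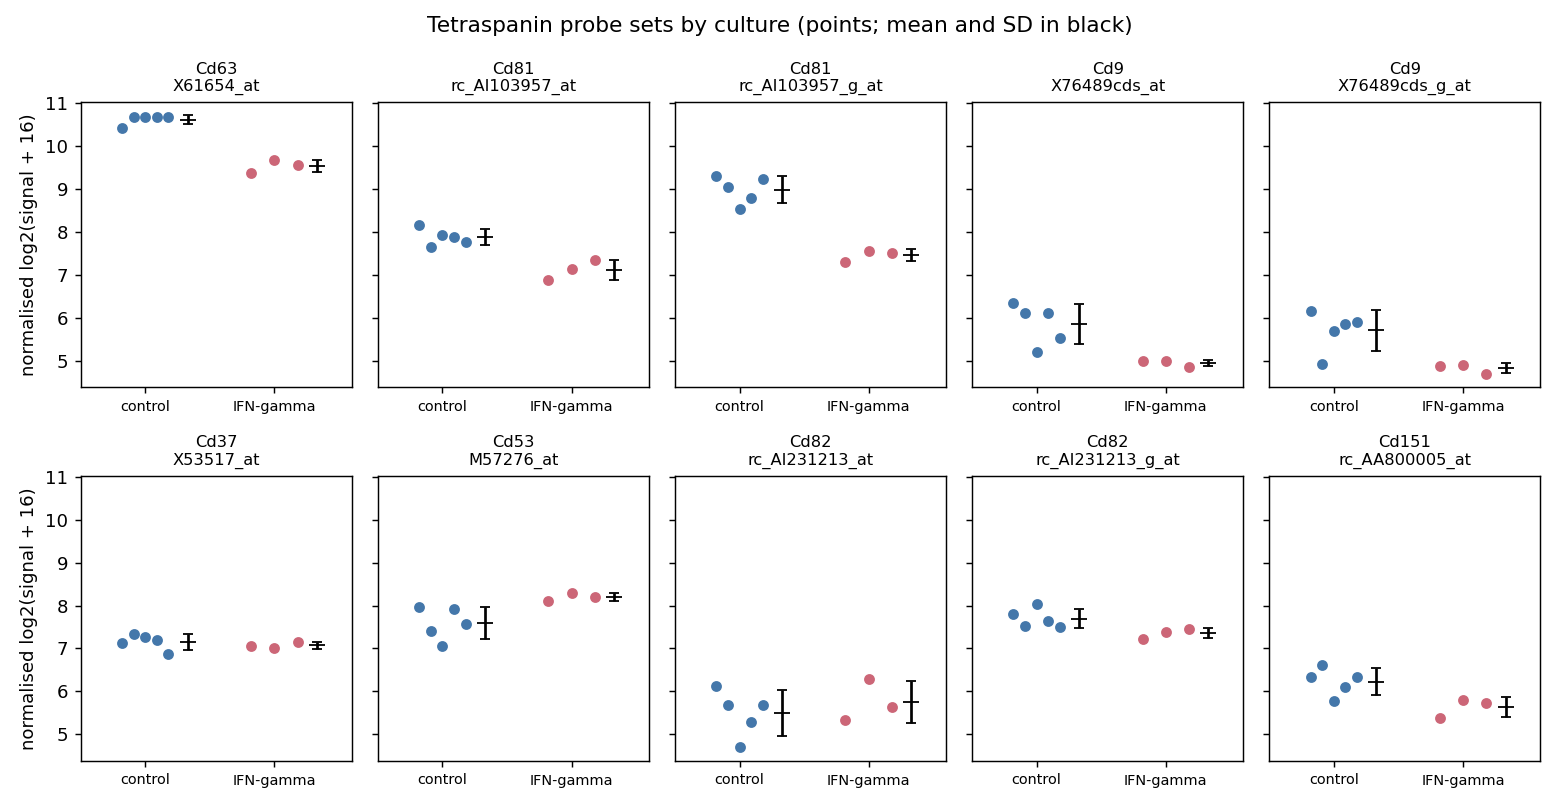
Normalised log2(signal + 16) of each of the 10 tetraspanin probe sets (vertical axis) in the 5 control cultures (blue) and 3 IFN-gamma cultures (red); points are cultures, and black marks are the mean and SD of each group. Cd63 lies at 10.4 to 10.7 in the controls and 9.37 to 9.66 with IFN-gamma, and Cd37 overlaps between the groups.

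Cd63 is the tetraspanin of late endosomes and lysosomes of cells. Its normalised level was 10.41 in control culture 1 and 10.66 in control cultures 2, 3, 5 and 6. With IFN-gamma it was 9.37 in culture 1, 9.66 in culture 2 and 9.56 in culture 3. The groups did not overlap: the lowest control lay 0.75 above the highest IFN-gamma culture. The difference was -1.08 ± 0.154 (SE; n = 5 and 3), a 2.12-fold lower level, from 10.6 ± 0.113 to 9.53 ± 0.15 (SD). The technical arrays of culture 1 differed by at most 0.32, less than that gap.

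The equal control values reflect the rank of Cd63 within each array, which needs no scaling between arrays. By deposited signal it was number 33 from the brightest of 8799 probe sets in 4 control arrays (cultures 2, 3, 5 and 6) and number 42 in control culture 1. With IFN-gamma it was number 80, 99 and 104 on arrays 1a, 1b and 1c, 74 in culture 2 and 80 in culture 3. Every IFN-gamma array thus placed more probe sets above Cd63 than any control array did. A rank also falls when other probe sets rise past it, and 81 probe sets were called higher with IFN-gamma. Rank alone therefore does not show less Cd63 RNA, and the normalised level, which follows the rank, shares this limit. The deposited signals themselves overlapped, because the arrays differ in brightness: they were 2716.7, 942.8, 383.9, 1419.2 and 2064.8 in control cultures 1, 2, 3, 5 and 6. On the IFN-gamma arrays they were 563.9, 1575.6 and 380.1 (1a, 1b and 1c), 1123 (culture 2) and 1388.5 (culture 3). The size of the difference therefore rests on the scaling. It was -0.71 ± 0.243 (SE) with arrays scaled to a trimmed mean, -0.39 ± 0.396 with array medians subtracted and -0.26 ± 0.582 without scaling. Cd63 was past the threshold under none of these 3 settings, and it was not past it with a pseudocount of 1, with the culture number as a block or without IFN-gamma culture 1 either.

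**Figure D2:**
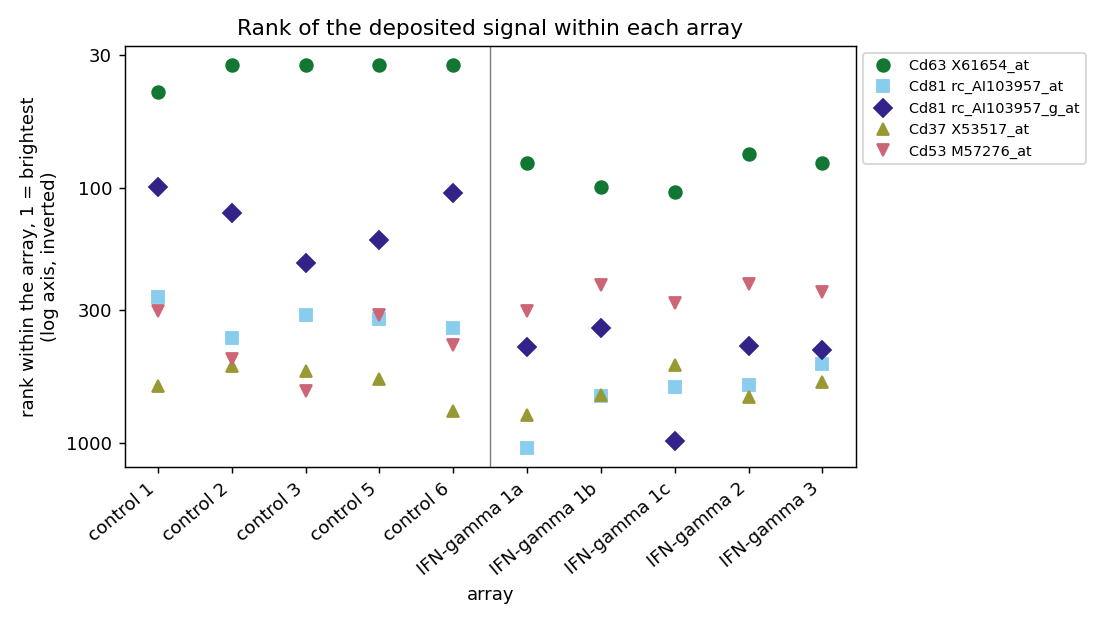
Rank of the deposited signal of the Cd63, Cd81, Cd37 and Cd53 probe sets within each of the 10 arrays (log axis, brightest at the top); the vertical line parts control from IFN-gamma arrays. Cd63 is number 33 to 42 in the controls and 74 to 104 with IFN-gamma, while Cd37 spans 500 to 751 and 493 to 781.

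Cd81, a partner of integrins that takes part in cell contact and fusion, had the largest difference of the family on the normalised scale and with the trimmed mean, whereas with array medians or no scaling that of Cd53 was larger. On its probe set rc_AI103957_g_at the normalised level was 9.31, 9.06, 8.53, 8.79 and 9.22 in control cultures 1, 2, 3, 5 and 6. It was 7.30, 7.56 and 7.51 in IFN-gamma cultures 1, 2 and 3. The groups stood 0.97 apart, with a difference of -1.52 ± 0.21 (SE; n = 5 and 3), a 2.88-fold lower level. Only 21 of the 8740 tested probe sets had a more negative difference, which makes it number 22 from the bottom.

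The other Cd81 probe set, rc_AI103957_at, gave a smaller difference in the same direction. It was at 8.15, 7.64, 7.93, 7.87 and 7.76 in the controls and at 6.88, 7.13 and 7.35 with IFN-gamma. The groups did not overlap here either, and the difference was -0.75 ± 0.182 (SE), a 1.69-fold lower level that was not past the threshold. Within arrays, rc_AI103957_g_at ranked number 99 to 197 in the controls and 353 to 982 with IFN-gamma. For rc_AI103957_at the ranks were 268 to 388 and 491 to 1045. Both were separated by rank without any scaling, with the limit of ranks given for Cd63. The technical arrays disagreed more for Cd81 than for Cd63. Arrays 1a, 1b and 1c gave 7.55, 7.77 and 6.57 on rc_AI103957_g_at, a range of 1.19. With array 1a, 1b or 1c alone for culture 1 that probe set was past the threshold each time. Under the trimmed mean, array medians and no scaling its difference was -1.28 ± 0.347, -0.97 ± 0.463 and -0.85 ± 0.678 (SE), not past the threshold in any of the 3. That of rc_AI103957_at was -0.66 ± 0.255, -0.37 ± 0.38 and -0.25 ± 0.551 (SE), not past it either.

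Cd9, which shares partners with Cd81 and restrains the fusion of macrophages, lay near the lower end of the scale, and both of its probe sets were lower with IFN-gamma. X76489cds_at was at 6.34, 6.11, 5.21, 6.10 and 5.52 in control cultures 1, 2, 3, 5 and 6 and at 4.98, 4.99 and 4.86 in the IFN-gamma cultures. X76489cds_g_at was at 6.16, 4.92, 5.69, 5.85 and 5.89 in the controls and at 4.87, 4.91 and 4.68 with IFN-gamma. The groups stood 0.22 apart on the first and 0.01 apart on the second, where control culture 2 was close to the IFN-gamma cultures. The differences were -0.91 ± 0.265 and -0.88 ± 0.265 (SE; n = 5 and 3), neither past the threshold. With IFN-gamma the levels lay under 5, where a fold change depends on the pseudocount. With a pseudocount of 1 the differences were -1.46 ± 0.445 and -1.49 ± 0.471 (SE). Over the 3 other scalings X76489cds_at lay between -1.03 and -0.78 and X76489cds_g_at between -1.01 and -0.76. Ranks within arrays overlapped for both, since control culture 3 ranked X76489cds_at at number 3702 and array 1b at 3435, and control culture 2 ranked X76489cds_g_at at 4603 and array 1b at 3054.

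Cd53, a tetraspanin of leukocytes, ran the other way. It was at 7.96, 7.41, 7.06, 7.92 and 7.56 in control cultures 1, 2, 3, 5 and 6 and at 8.11, 8.29 and 8.20 with IFN-gamma. All 3 IFN-gamma cultures lay above the controls, by 0.15 at the nearest. The difference was 0.62 ± 0.227 (SE; n = 5 and 3), a 1.54-fold higher level that was not past the threshold. The IFN-gamma cultures differed less among themselves (SD 0.0918) than the controls did (SD 0.373). Its rank within arrays was 305 to 625 in the controls and 239 to 303 with IFN-gamma, which did not overlap. Under the other scalings the difference and its SE were both larger, at 0.77 ± 0.284 with the trimmed mean, 1.04 ± 0.401 with array medians and 1.16 ± 0.59 without scaling. Cd53 was past the threshold in 0 of the 20 other settings.

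Cd37, the other leukocyte tetraspanin, showed no separation. It was at 7.12, 7.33, 7.27, 7.19 and 6.86 in the controls and at 7.06, 7.00 and 7.16 with IFN-gamma, all 3 within the range of the controls. The difference was -0.08 ± 0.163 (SE; n = 5 and 3), and its sign depended on the scaling, at 0.01, 0.28 and 0.41 under the trimmed mean, array medians and no scaling. Its rank within arrays overlapped as well, at 500 to 751 and 493 to 781.

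The metastasis suppressor gene Cd82 (also Kai1) gave no single direction. On rc_AI231213_g_at it was at 7.79, 7.53, 8.03, 7.64 and 7.49 in the controls and at 7.23, 7.38 and 7.45 with IFN-gamma, a difference of -0.34 ± 0.176 (SE; n = 5 and 3) with the groups 0.04 apart. The other probe set, rc_AI231213_at, ranged from 4.71 to 6.13 in the controls and from 5.33 to 6.29 with IFN-gamma, with a difference of 0.25 ± 0.334 (SE). The groups overlapped there, and the sign of rc_AI231213_g_at turned to 0.08 with array medians and 0.20 without scaling. Cd151, a partner of laminin-binding integrins, was at 6.34, 6.60, 5.77, 6.09 and 6.33 in the controls and at 5.37, 5.81 and 5.74 with IFN-gamma. Its groups overlapped, since control culture 3 lay below IFN-gamma culture 2. The difference was -0.59 ± 0.218 (SE; n = 5 and 3), not past the threshold, and the technical arrays of culture 1 spanned 1.30, more than that difference.

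**Figure D3:**
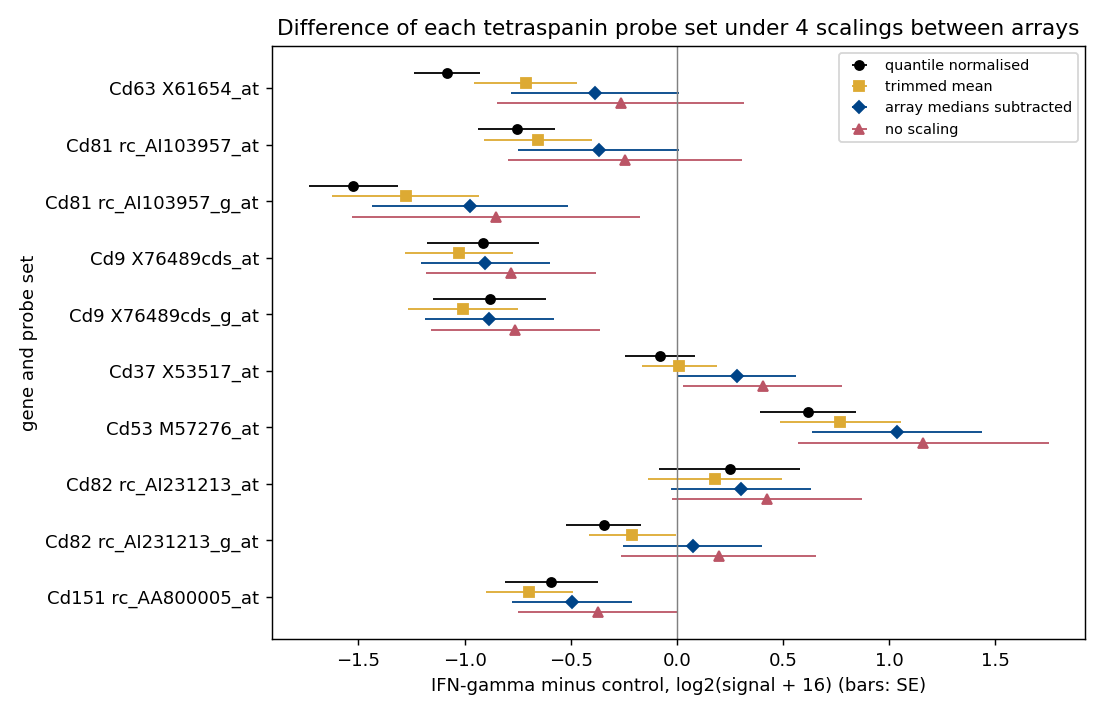
IFN-gamma minus control difference of each tetraspanin probe set in log2(signal + 16) (horizontal axis; bars are SE of the fit) under quantile normalisation, a trimmed mean, array medians and no scaling. Cd63, Cd81, Cd9 and Cd151 lie below 0 and Cd53 above 0 under all 4, while Cd37 and rc_AI231213_g_at of Cd82 lie on both sides of it. Without scaling the bars of Cd63, rc_AI103957_at of Cd81 and Cd151 reach 0, and with array medians those of Cd63 and rc_AI103957_at do.

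The members moved apart from each other, which can be stated without a scale between arrays by dividing each deposited signal by that of another member on the same array. Cd53 and Cd37 were taken as the divisors after their values were seen, and such a ratio shows an unequal change and not which gene of the pair moved. The ratio of Cd63 to Cd53 was 6.37, 9.84, 8.93, 6.46 and 9.62 in control cultures 1, 2, 3, 5 and 6 and 2.67, 2.75 and 2.91 with IFN-gamma. The ratio was 2.92-fold lower with IFN-gamma, and the groups were far apart. The ratio of Cd81 (rc_AI103957_g_at) to Cd53 was 2.81, 2.96, 2.21, 1.72 and 3.26 in the controls and 0.553, 0.549 and 0.577 with IFN-gamma, 4.52-fold lower. The ratios of Cd9 to Cd53 were 5.72-fold (X76489cds_at) and 5.97-fold (X76489cds_g_at) lower. Cd9 signals on the IFN-gamma arrays were only 4.1 to 41.6 and the ratios hold no pseudocount, so the size of these folds is uncertain. Of the 9 probe sets set against Cd53, 8 had all IFN-gamma cultures below all controls, and rc_AI231213_at of Cd82 overlapped. Over all probe sets 13.4% lay entirely below when set against Cd53 and 1.01% entirely above, and because Cd53 was itself higher with IFN-gamma, nothing is read from the count. Set against Cd37, 5 of 9 lay entirely below: both probe sets of Cd81, both of Cd9, and Cd151, as did 3.57% of all probe sets, with 3.73% entirely above; the members' choice on this comparison holds here too. Cd53 to Cd37 lay entirely above, at 0.901 to 2.22 in the controls and 2.30 to 2.97 with IFN-gamma. Cd63 to Cd37 overlapped narrowly, at 8.05 to 16.7 in the controls and 6.12 to 8.17 with IFN-gamma.

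**Figure D4:**
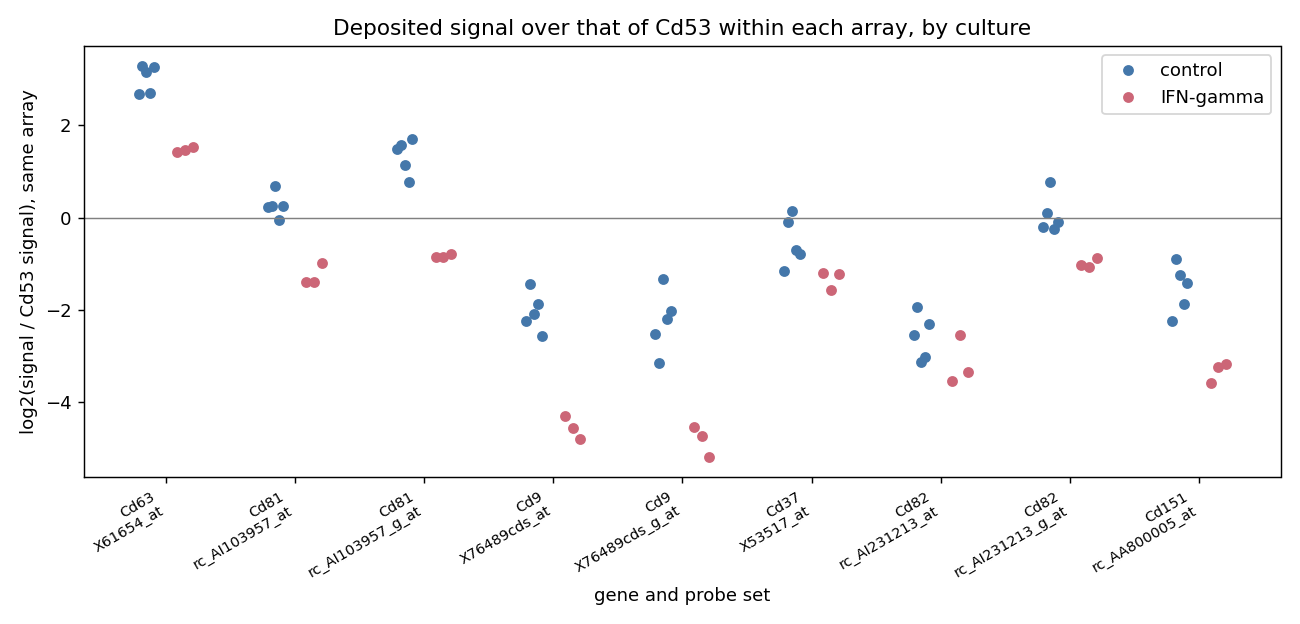
Log2 of the deposited signal of each tetraspanin probe set over that of Cd53 on the same array (vertical axis), for 5 control cultures (blue) and 3 IFN-gamma cultures (red), with the technical arrays of culture 1 averaged. Each group of red points lies below the blue points of its probe set except for rc_AI231213_at of Cd82.

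The genes with the profile most like that of Cd63 were found by the root mean square difference over the 8 cultures, after subtracting each probe set's control mean, among 1199 probe sets with a mean level of at least 6. They were Gnas (0.0833), Cd4 (0.107), Gpx3 (0.183), Lamp1 (0.193) and Apoe (0.198). For Cd81 (rc_AI103957_g_at; 1198 probe sets) they were Timp2 (0.243), Lamp1 (0.255), Plau (0.267), Fcgrt (0.31) and Emb (0.332). All 10 entries had a negative difference, from -1.52 (Fcgrt) to -0.93 (Gpx3). Their choice by likeness to the lower profiles of Cd63 and Cd81 fixed that sign, so nothing is read from it.

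Of the wider pathway, 3 lists were set: other tetraspanins, proteins known to associate with tetraspanins, and proteins of the endolysosome and of extracellular vesicles. In all 50 of their genes were measured and 3 passed limma's test over all 8740 probe sets, by any probe set, against 1.9% of the 4736 genes with a single symbol. Among 5 other tetraspanins 0 rose and 0 fell. At limma's unadjusted p under 0.05 by the brightest probe set, 0 rose and 1 fell, where 277 and 249 of all 4736 genes did. Tspan3 was 1.69-fold lower (difference -0.76 ± 0.204 SE, adjusted p = 0.146) with its groups separated, and the photoreceptor tetraspanin genes Rom1 and Prph2 had differences of 0.55 (adjusted p = 0.661) and -0.11 (adjusted p = 0.936). The median difference of these 5 was -0.06, against -0.02 over all genes.

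Among 26 partner proteins 1 rose and 1 fell (2 and 1 at limma's unadjusted p under 0.05), with a median difference of 0.04. Cd4, a coreceptor that associates with CD81 and CD82 and is carried by rat macrophages as well as T cells, fell 2.03-fold (limma's adjusted p = 0.00792). Its level was 7.56 ± 0.117 (SD, n = 5) without and 6.53 ± 0.0509 (SD, n = 3) with the cytokine. Its call was lost under 5 of the 20 other settings (adjusted p 0.000873 to 0.865). One of the 5 left out IFN-gamma culture 3 (adjusted p = 0.0649). Icam1, the adhesion receptor ligand that tetraspanins gather at cell contacts, rose 2.19-fold on D00913_at (adjusted p = 0.0459), the controls lying at 5.58 ± 0.357 (SD, n = 5) and the stimulated cultures at 6.71 ± 0.17 (SD, n = 3). Its other probe set had a difference of 1.35 (adjusted p = 0.0819). The call of Icam1 was lost under 13 of the 20 other settings (adjusted p 0.0167 to 0.246). It did not survive leaving out any single IFN-gamma culture, or control culture 1, 2, 5 or 6. The integrin genes Itgam and Itga8 had differences of 0.79 (adjusted p = 0.0951) and -0.63 (adjusted p = 0.658), and the sheddase gene Adam10, a client of several tetraspanins, had 0.45 (adjusted p = 0.667). For Itgb1, the integrin chain most often bound by tetraspanins, it was -0.37 (adjusted p = 0.61).

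Among 19 endolysosome and vesicle genes 0 rose and 1 fell (1 and 1 at limma's unadjusted p under 0.05), with a median difference of -0.07. The gene past the adjusted threshold was Lamp1, a lysosomal membrane glycoprotein found beside CD63, which fell 2.38-fold on rc_AI233362_at (adjusted p = 0.0043). There the controls lay at 9.40 ± 0.178 (SD, n = 5) and the stimulated cultures at 8.15 ± 0.11 (SD, n = 3). This call was lost under 5 of 20 other settings (adjusted p 0.000419 to 0.938), with the difference at -0.98, -0.66 and -0.54 under the trimmed mean, array medians and no scaling. The other Lamp1 probe sets were not past the threshold. Their differences were -1.50 (rc_AA850756_at, adjusted p = 0.0724), -0.72 (rc_AA899808_at, adjusted p = 0.455) and -0.63 (rc_AA899808_g_at, adjusted p = 0.506). The groups overlapped on rc_AA899808_at and rc_AA899808_g_at. The ESCRT genes Hgs and Chmp2a, which sort cargo into vesicles of the endosome, had differences of 0.82 (adjusted p = 0.597) and 0.69 (adjusted p = 0.485), and the late endosome GTPase gene Rab7a 0.60 (adjusted p = 0.338). The vesicle gene Sdcbp (syntenin) had -0.28 (adjusted p = 0.824). Sdc4 had -0.39 (adjusted p = 0.737) on its brightest probe set. On S61868_at it had -0.90 (adjusted p = 0.179) with the groups separated, and on rc_AA800059_at 0.25 (adjusted p = 0.919).

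Of the markers of other cells, 1 gene passed the test, the astrocyte marker Glul (difference -1.66, adjusted p = 0.00301). The summed normalised signal of 7 astrocyte markers was 556 to 905 in the controls and 238 to 300 with IFN-gamma, but the 6 without Glul had differences of -0.18 to 0.13 (adjusted p 0.888 to 0.96). The 5 fibroblast markers summed to 158 to 225 and 118 to 142, with 0 past the test. Col1a2, Lum and Col3a1 had differences of -0.71, -0.59 and -0.55 (adjusted p 0.338 to 0.425), and Col1a1 and Dcn had 0.00 and -0.05. The 9 microglia and macrophage markers summed to 2358 to 3455 and 6880 to 7983, with 2 past it (Lyz2, 1.61, adjusted p = 0.00464, and C1qb, 1.14, adjusted p = 0.0239). Lyz2 had the highest level on that list, and P2ry12, Cd14 and Cx3cr1 had negative differences of -0.65, -0.34 and -0.29 (adjusted p 0.609 to 0.87). The sums of 7 oligodendrocyte, 6 neuronal, 3 endothelial and 3 lymphocyte markers overlapped between the groups. CD9 and CD81 are also made by astrocytes and other glia, and the part of these differences in the levels of Cd9, Cd81 and the other members was not tested.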

How the data were processed

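RNA of 8 microglia cultures was measured on 10 arrays. The deposited values are signal intensities, linear and not yet put on a common scale between arrays. Per the submitters' processing notes MAS5 and GCRMA were used, with no version or role, and nothing more is known here of their background correction. Depth has no counterpart on arrays: their number limits the precision.

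The signals were taken as log2(signal + 16) and quantile normalised over all 10 arrays. Arrays 1a to 1c were then averaged and 59 array controls were left out. Quantile normalisation makes a level a function of its rank, so probe sets of equal rank get equal values. The 8740 remaining probe sets were fitted with limma 3.58.1 in R 4.3.3 (lmFit, eBayes, two-sided, group as the only term) with Benjamini-Hochberg adjustment over all of them. The step was tested on simulated data with known answers. The series' design text calls the cultures independent, and p-values measure the spread between them.

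Symbols came from the platform annotation: 7006 tested probe sets had 1 symbol, 308 several and 1426 none. The 10 member symbols matched the RefSeq table through Entrez identifiers. The members, gene lists and motifs were chosen with earlier results of these data known. Named are all member probe sets and the 5 nearest profiles of Cd63 and Cd81. Of each list the companion genes past the threshold are named, with up to 3 others of the largest differences by their brightest probe set. Itgb1, Sdcbp, Sdc4 and the marker genes were added after their values were seen. Alternatives covered scaling, pseudocount, dim probe sets, technical arrays, blocks, trend and each culture left out. Shares of ratios over all probe sets cover the 8739 with a signal above 0 on every array other than the divisor.

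Culture numbers 1, 2 and 3 occur in both groups. No label ties equal numbers to 1 brain or 1 day, so the fit has no block.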

Additional observations from a re-analysis of the deposited data

Results flagged for a closer look

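In control culture 1 the Cd63 probe set X61654_at was at 10.41, below the other 4 controls, which shared 1 value because Cd63 held the same rank on each of those arrays. The gap to the others was therefore the whole range of the group. Of the 10 member probe sets examined this way in the 5 controls, Cd63 was the only one with such a gap. Chance gives about 1 in 20 for values without ties. With these tied values that rate does not apply, so nothing is read from the gap. Without control culture 1 Cd63 was past the threshold as well.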

How the results depend on the processing

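Of 20 other settings, all kept the sign of Cd63, Cd81, Cd9, Cd53 and Cd151. With no scaling, however, the SE exceeded the difference for Cd63, rc_AI103957_at of Cd81 and Cd151. With array medians it did so for Cd63 and rc_AI103957_at. Cd37 changed sign in 4 settings, rc_AI231213_g_at of Cd82 in 2 and rc_AI231213_at in 1 (without IFN-gamma culture 2). Past the threshold were 2 tetraspanin probe sets in the fit as reported, and 0 with no scaling, with array medians subtracted, with the trimmed mean, with a pseudocount of 1 and with the replicate block. The count over all probe sets was 134, and 39 with no scaling, 67 with a pseudocount of 1 and 22 with the replicate block; the companion genes numbered 3, and 0, 0 and 0 in those settings and 1 with array medians subtracted. Higher calls were 60.4% of all calls, 97.4% with no scaling and 78.7% with array medians. No scaling moved the median of all probe sets from -0.02 to 0.10, and relative to it the differences of Cd63 and Cd53 were -0.36 and 1.06. Leaving out 1 culture at a time gave 68 to 154 probe sets (75, 76 and 68 without IFN-gamma culture 1, 2 and 3), 1 to 3 tetraspanin probe sets (1 without IFN-gamma culture 1) and 1 to 3 companion genes (1 without IFN-gamma culture 3). The cause of these shifts was not tested. Deviations of same-numbered cultures from their group means had correlations of -0.03, 0.00383 and -0.01 over all probe sets. Those means come from only 3 and 5 cultures, so the correlations cannot tell whether equal numbers mark a shared brain or day. With the replicate block the difference of Cd63 was -1.05 and that of Cd81 (rc_AI103957_g_at) -1.51. Levels near 4 have no room for a fall, which limits Cd9.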
